A study of Sus scrofa with 30 samples.

Results

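The genes described here are 8 components of the machinery that reads messenger RNA: the elongation factors EEF1A1, EEF1B2 and EEF2, the translationally controlled tumor protein TPT1, the initiation factor EIF4A2, the repressor EIF4EBP1, and the cytoplasmic poly(A)-binding proteins PABPC1 and PABPC4. They were chosen by name, with their levels across stages and the change from peak lactation to weaning already known, and every transcript in the table that the RefSeq annotation of the pig genome (Sscrofa11.1) gives to them was taken. This yielded 23 of 61773 transcripts, or 8 of 26012 genes and assembled loci. The tissue was mammary parenchyma of multiparous Danish Landrace×Yorkshire sows that were related through a shared parent. Mid-gestation samples (MG) were taken on day 70 and late gestation samples (LG) on day 110 of pregnancy, early lactation samples (EL) at 2 and peak lactation samples (PL) at 10 days after farrowing, and W2 samples 2 days after the piglets were weaned. There were 6 libraries per stage, and 3 of them nearly repeated the mean of the other 3, so 3 samples per stage and 15 in all were counted.

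Translation of a messenger RNA begins when the cap-binding protein EIF4E, the scaffold EIF4G and a helicase of the EIF4A family assemble at its cap, and poly(A)-binding protein on the tail contacts the scaffold so that both ends of the message are brought together. EIF4EBP1 binds EIF4E and keeps the scaffold away until mTOR phosphorylates it. During elongation, EEF1A delivers each aminoacyl-tRNA to the ribosome, EEF1B recharges EEF1A with GTP, and EEF2 moves the ribosome along by a codon. Messages of elongation factors, poly(A)-binding proteins and TPT1 are known for a pyrimidine-rich start that ties their translation to mTOR. The lactating mammary epithelium is a tissue of very high protein output, with most of it in the form of milk proteins.

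The authors name their deposited, length-normalized values FPKM, yet the sum over a counted sample was always between 997480 and 998888, close to the fixed total of TPM. They are called units here, and a gene's level is the sum over its reference transcripts. Because the total is fixed, a rise of a few abundant transcripts lowers all the others. The milk protein genes took 9.14 to 28.5% of all units in PL against 0.579 to 12.1% elsewhere, and the 20 most abundant transcripts took 42.2 to 59.9% in PL against 25.6 to 41.7%. PL_2 was the extreme in both. Over all genes with a mean of at least 10 units the median log2 fold change from PL to W2 was 0.82, and median ratio scaling, which divides each sample by its typical ratio to the other samples, brought it to 0.08. Members are therefore given on both scales. Luminal keratins and EPCAM were present in each stage. The summed adipocyte markers (2 of 4 listed in the table) were 248 to 386 units in PL and 442 to 730 elsewhere. The 3 fibroblast collagen and matrix genes were 346 to 803 in PL and overlapped EL, at 651 to 960. They were 1211 to 1703 in MG, 841 to 1568 in LG and 983 to 2078 in W2. The other cell type lists overlapped between PL and the rest. Luminal markers were 771 to 1592 in PL and 1137 to 1720 elsewhere. Basal markers (3 of 4 in the table) were 742 to 1885 and 857 to 1660. Leukocyte markers (3 of 4) were 7.68 to 11.0 and 5.44 to 27.9, and endothelial markers (2 of 3) 62.8 to 87.1 and 70.4 to 141. All marker sums are deposited values, without median ratio scaling. The part of these shifts in the results below was not tested, and in whole tissue fewer cells of a type and less RNA per cell cannot be told apart. The samples with titles starting EL carry the stage name mid-gestation in their records, and those starting MG carry early lactation. Titles were followed. The milk protein genes took 6.40 to 12.1% of all units in the samples titled EL and 1.19 to 2.95% in those titled MG.

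EEF1B2, the exchange factor of the EEF1 complex (chr15:109451901-109455529), had a single transcript. Its level was 2310, 2357 and 2735 units in MG, 2403, 2234 and 2320 in LG, 2207, 1428 and 1701 in EL, 380, 733 and 1061 in PL, and 2373, 2470 and 2364 in W2. The 3 PL samples lay below all the others, and the W2 samples lay within the range of MG and LG together. The log2 fold change from PL to W2 was 1.85 (SE 0.28, n = 3 per stage), and 1.11 (SE 0.18) after median ratio scaling.

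EEF2, the translocase (chr2:74746541-74756687), was also lowest in PL. Its level was 2000, 2406 and 2530 units in MG, 2409, 2185 and 2449 in LG, 2115, 1482 and 1729 in EL, 515, 1026 and 1231 in PL, and 2573, 2741 and 2468 in W2. The lowest value outside PL stood above the highest PL value, and W2 lay wholly above LG and EL. The change from PL to W2 was 1.58 on the log2 scale (SE 0.26), or 0.84 (SE 0.15) after scaling.

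EEF1A1, which carries aminoacyl-tRNA to the ribosome (chr1:92421235-92425053), was with TPT1 among the most abundant messages of the gland. Its sum was 10747, 13794 and 10700 units in MG, 12622, 10084 and 4577 in LG, 4469, 7654 and 9324 in EL, 2417, 5716 and 3122 in PL, and 13287, 11753 and 12699 in W2. The W2 samples were all high, while LG and EL each held 1 sample within the PL range. PL therefore overlapped LG and EL, and lay below MG and W2. From PL to W2 the log2 fold change was 1.84 (SE 0.39), and 1.10 (SE 0.39) after scaling.

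The low LG and EL samples of EEF1A1 had a different transcript composition. NM_001097418.2 made up 69.3 to 99.6% of the sum in 12 of the 15 samples, whereas it made up 1.35% in LG_4, 1.06% in EL_3 and 2.54% in PL_6. In these 3 samples the second transcript, XM_005654402.3, stood at 4515, 4422 and 3043 units, and of the other 12 samples, which ranged from 39.2 to 3298 units, MG_1 alone reached PL_6. The sum of both transcripts was the lowest of its stage in LG_4 and EL_3, and the middle value in PL_6. Gene copies with nearly the same sequence exist for EEF1A1, TPT1 and PABPC1, and how the authors' quantification shared reads between such copies, or between the transcripts of a gene, is not given in the sources used here.

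TPT1 (chr11:21929294-21932905), a small conserved protein that binds elongation factors and supports cell survival, had the lowest coefficient of variation of the members. It stood at 11138, 11794 and 11700 units in MG, 10960, 11465 and 11853 in LG, 12126, 10317 and 10398 in EL, 5174, 9522 and 11215 in PL, and 10893, 12455 and 10324 in W2. Only PL_2 and PL_3 were below the 10317 to 12455 units of the samples outside PL. The coefficient of variation over the 15 samples was 16.1%, and 9.20% of the 783 genes with a mean of at least 100 units had a lower one. For the other members it ran from 33.0% (EEF2) to 71.0% (PABPC1). After median ratio scaling the coefficient for TPT1 was 12.8%, and 16.3% of those genes had a lower one. The direction of TPT1 turned with the scale: the log2 fold change from PL to W2 was 0.45 (SE 0.22) as deposited and -0.30 (SE 0.12) after median ratio scaling. Quantile normalization, which gives every sample the same set of values by rank, put it at 1.13, and without PL_2 the deposited value was 0.11.

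**Figure D1:**
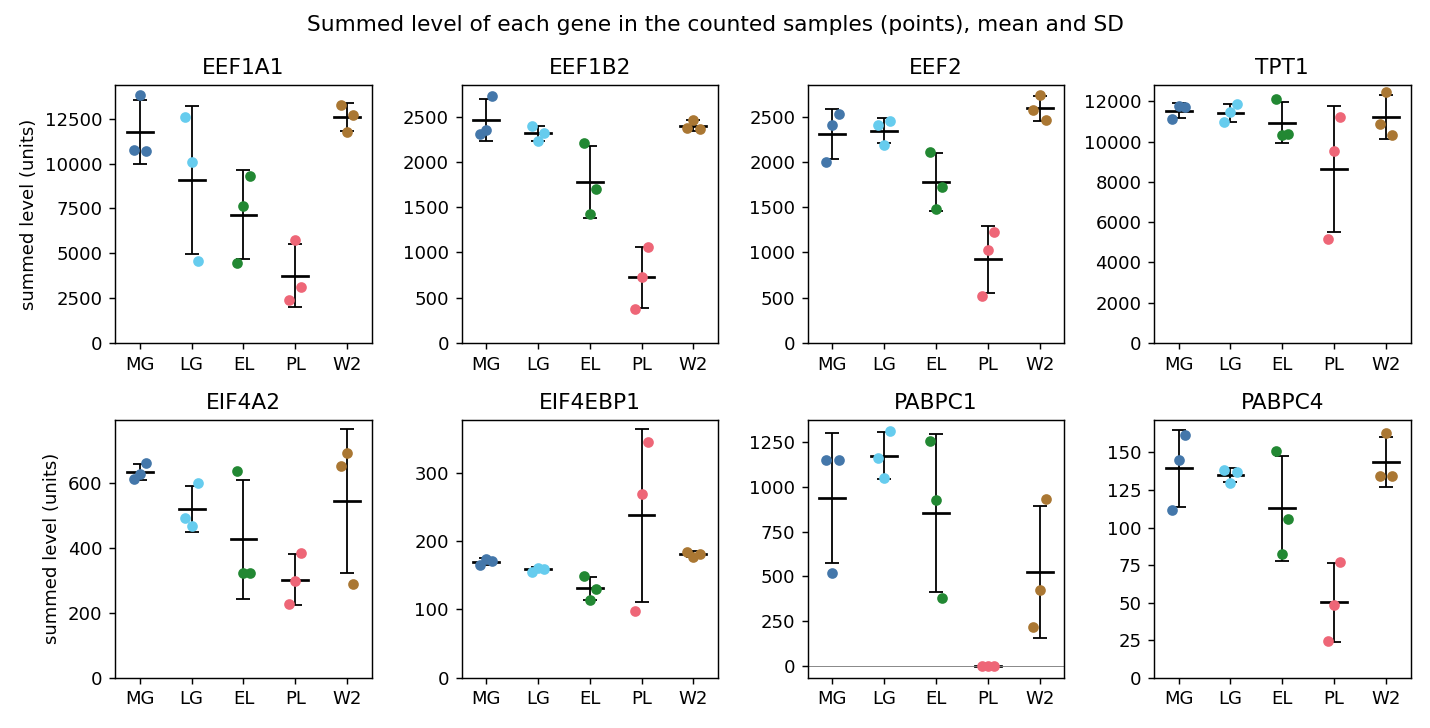
Summed level in units (vertical axes, linear, from 0) of each of the 8 genes in the 3 counted samples of MG, LG, EL, PL and W2. Points are samples, the long bar is the mean and the whiskers the SD. EEF1B2, EEF2, PABPC1 and PABPC4 lie lower in every PL sample than in any other, PABPC1 is listed at 0 there, and EIF4EBP1 spreads from 98.4 to 346 in PL.

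PABPC1, the main cytoplasmic poly(A)-binding protein (chr4:36137644-36228075), was listed at 0 in the 3 counted PL samples and in the other 3 PL libraries too. Outside PL its only reference transcript, XM_001927747.4, had 1151, 520.5 and 1149 units in MG, 1163, 1051 and 1309 in LG, 1256, 928 and 381 in EL, and 215, 423 and 933 in W2. The levels varied more within MG, EL and W2 than those of the elongation factors did. Of the 394 reference transcripts with at least 100 units in each of the 12 samples outside PL, PABPC1 was the only 1 listed at 0 throughout PL. A value of 0 in a table without read counts can be an estimate that failed, so no fold against PL is given. The sum covers reference transcripts only: 29047 assembled transcripts carry no coordinates, and any that belong to these genes are not included.

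PABPC4, a relative of PABPC1 that binds the same tails (chr6:95382295-95399452), was detected in every PL sample. Its summed level was 111, 145 and 161 units in MG, 139, 130 and 137 in LG, 151, 82.1 and 105 in EL, 24.6, 48.6 and 77.2 in PL, and 134, 163 and 134 in W2. PL lay below all the other samples, though the lowest EL sample came close to the highest in PL. The log2 fold change from PL to W2 was 1.65 (SE 0.34), and 0.91 (SE 0.24) after scaling.

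PABPC4 was spread over 12 transcripts, 10 of which made up more than 5% of the gene in at least 1 stage, and 11 of the 12 had their lowest stage mean in PL. The most abundant pair, XM_003127813.5 and XM_003482030.4, averaged 26.0 ± 7.43 and 26.9 ± 7.40 units in W2 (SD, n = 3). In PL the former averaged 12.8 units and the latter 15.1 ± 18.9, and PL_6 held most of both. XM_003482030.4 was the exception, with its lowest mean, 12.6 ± 5.42, in EL. XM_005665250.3 averaged 13.9 units in W2 and 3.98 in PL, XM_013999192.2 averaged 11.8 and 3.75, and the non-coding XR_002344974.1 averaged 10.2 and 5.12. The remaining 5 transcripts above 5%, namely XM_005665249.3, XM_005665251.3, XM_005665252.3, XM_005665253.3 and XM_021095988.1, averaged 4.56 to 10.9 units in W2 and 1.09 to 2.27 in PL. PL_2 and PL_6 each had 5 of the 12 transcripts listed at 0, PL_3 had none, and none of the 144 values outside PL was 0.

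EIF4A2, a helicase that unwinds the leader of messages (chr13:124582822-124589296), changed less from PL to W2 than the elongation factors and PABPC4. Its sum was 611, 626 and 660 units in MG, 491, 467 and 600 in LG, 638, 321 and 321 in EL, 225, 298 and 383 in PL, and 652, 693 and 288 in W2. PL overlapped EL and W2, since EL_4, EL_6 and W2_6 were as low as PL samples. The log2 fold change from PL to W2 was 0.78 (SE 0.34) as deposited and 0.04 (SE 0.31) after scaling.

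The low EIF4A2 samples outside PL were again marked by 1 transcript. NM_001100195.1 made up 64.6 to 79.1% of the gene in 9 of the 12 samples outside PL and 63.7 to 65.96% in PL, but 44.7% in EL_4, 56.4% in EL_6 and 30.9% in W2_6. It had 89.0 units in W2_6 against 515 and 452 in the other W2 samples. XM_021068176.1 averaged between 74.8 units (PL) and 116 (MG), and the non-coding XR_297056.2 between 21.9 (PL) and 47.3 (LG). XR_001303170.2, also non-coding, averaged 38.6 ± 21.0 units in W2 and 9.34 ± 3.56 in PL.

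**Figure D2:**
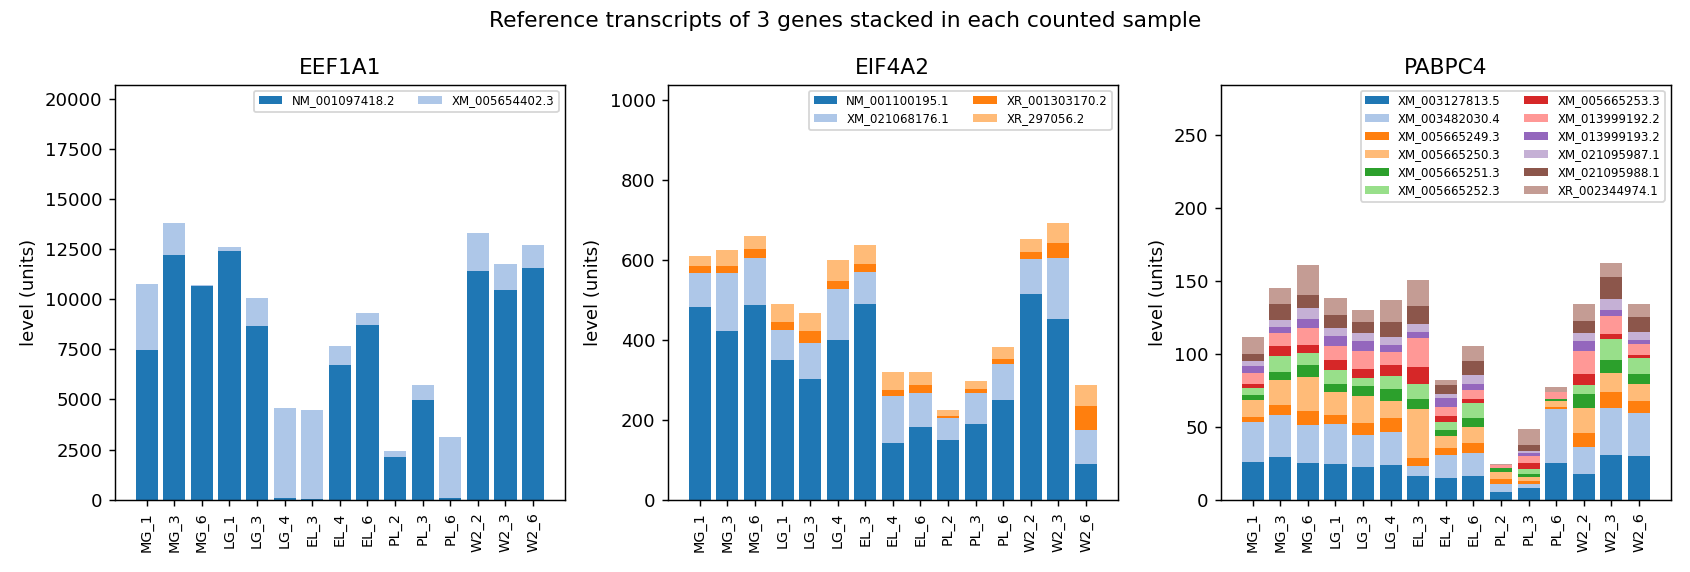
Level in units (vertical axes, linear) of each reference transcript of EEF1A1, EIF4A2 and PABPC4, stacked in each of the 15 counted samples (horizontal axes). NM_001097418.2 is nearly missing from LG_4, EL_3 and PL_6, and NM_001100195.1 is lowest in W2_6, at 89.0 units.

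EIF4EBP1, the repressor of cap-dependent initiation (chr15:48423001-48443373), was the member whose mean was highest in PL. Its level was 165, 174 and 172 units in MG, 155, 161 and 160 in LG, 148, 114 and 130 in EL, 98.4, 270 and 346 in PL, and 185, 177 and 182 in W2. The 3 samples of MG, LG and W2 each lay within a narrow band, and PL held both the lowest and the highest values of all. After median ratio scaling the PL samples stood at 174, 321 and 412 against 136 to 158 in the other 12. From PL to W2 the log2 fold change was -0.21 (SE 0.33) as deposited and -0.95 (SE 0.22) after scaling. Without PL_2 the deposited value was -0.75, and without PL_6 it was 0.15, so its direction rested on these libraries.

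Ratios between genes of the same sample do not depend on any single factor applied to the whole sample, though quantile normalization alters them. EEF1B2 per TPT1 was 0.0734 to 0.0946 in PL and 0.138 to 0.234 outside it. EEF2 per TPT1 was 0.0995 to 0.110 against 0.144 to 0.239, with PL_2, PL_3 and PL_6 close together although their levels differed. PABPC4 per TPT1 was 0.00475 to 0.00688 against 0.00796 to 0.0138. EIF4EBP1 per TPT1 was 0.0190 to 0.0309 in PL and 0.0110 to 0.0176 elsewhere. EEF1A1 and EIF4A2 overlapped on this measure. Thus EEF1B2, EEF2 and PABPC4, 3 of the 8 members, lay below all other samples in PL on each of these 3 scales with measured values, and PABPC1 did so by its listed 0. Of the 7857 genes with a mean of at least 10 units, 20.2% did so as deposited, 8.78% after scaling and 6.67% per TPT1. EIF4EBP1 lay above all other samples on the latter 2 scales, where 6.12% and 3.72% of genes did so. With quantile normalized values EEF1B2, EEF2 and PABPC4 again lay below all other samples in PL, but not per TPT1, where the EEF2 ratio was 0.170 to 0.220 in PL and 0.130 to 0.216 elsewhere. EIF4EBP1 per TPT1 stayed on top, at 0.0334 to 0.0480 against 0.00989 to 0.0174, and EIF4A2 per TPT1 was then also higher in PL, at 0.0531 to 0.0753 against 0.0175 to 0.0461. The members were chosen with these levels known, so the counts are a description.

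**Figure D3:**
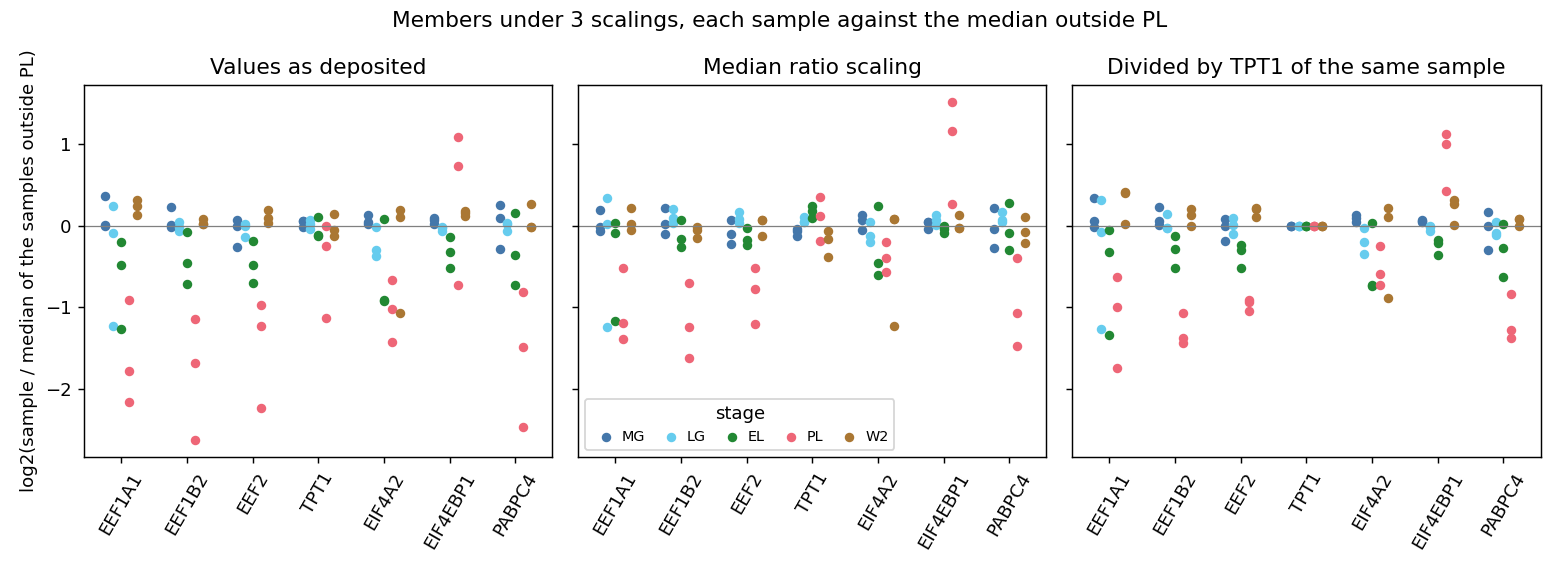
Log2 of each sample over the median of the 12 samples outside PL (vertical axis, shared), for 7 genes under the deposited values, median ratio scaling and division by TPT1. PABPC1 is left out because it is listed at 0 in PL. EEF1B2, EEF2 and PABPC4 keep all PL points below the others in each panel, EIF4EBP1 has all PL points on top under median ratio scaling and per TPT1, and TPT1 moves from below to around the line.

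Taking the 8 members as a sum, they held 2.83 to 3.19% of all units in MG, 2.35 to 3.04% in LG, 2.24 to 2.41% in EL, 0.884 to 1.76% in PL and 2.95 to 3.09% in W2. The PL and EL ranges did not meet. TPT1 and EEF1A1 alone held 2.19 of the 2.83% in MG_1 and 0.760 of the 0.884% in PL_2, so the sum mostly follows these genes. It is a share of the fixed total, which the milk protein genes also fill. Against MG, the log2 fold change in PL was -1.88 (SE 0.28) for EEF1B2, -1.73 (SE 0.39) for EEF1A1, -1.60 (SE 0.34) for PABPC4, -1.41 (SE 0.26) for EEF2, -1.10 (SE 0.34) for EIF4A2, -0.49 (SE 0.22) for TPT1 and 0.30 (SE 0.33) for EIF4EBP1. The median over genes of at least 10 units in that comparison was -0.70. After scaling, EEF1B2 was at -1.22 (SE 0.18), EEF1A1 at -1.07 (SE 0.39), PABPC4 at -0.94 (SE 0.24), EEF2 at -0.75 (SE 0.15) and EIF4EBP1 at 0.96 (SE 0.22), while TPT1 turned to 0.17 (SE 0.12). After scaling EIF4A2 was at -0.44 (SE 0.31), and the median over genes of at least 10 units was -0.05. PL vs MG and W2 vs PL share the PL samples. No p-value is given for these contrasts, because they were in view when the members were chosen.

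The comparisons among MG, LG, EL and W2 were tested with limma over all genes, and none of the 48 tests of a member passed an adjusted p of 0.05. At an unadjusted p under 0.05 there were 3, namely PABPC1 in W2 vs LG and EEF1A1 and EEF2 in W2 vs EL, where 7.57% of all genes in W2 vs LG and 25.1% in W2 vs EL had such a p. After the adjustment, 0.0115% of all genes were called in LG vs MG and in W2 vs MG, 0.0154% in EL vs LG, 0.0269% in EL vs MG, 0.0346% in W2 vs LG and 0.554% in W2 vs EL. The smallest adjusted p belonged to EEF1A1 in W2 vs EL, with a log2 fold change of 0.88 (SE 0.39, limma adjusted p = 0.18), and the fold fell to 0.57 without EL_3. For EEF2 in W2 vs EL it was 0.56 (SE 0.26, limma adjusted p = 0.19). For PABPC1 in W2 vs LG the log2 fold change was -1.41 (SE 0.51, limma adjusted p = 0.59). The other members stayed within -0.65 (EIF4A2, EL vs MG, SE 0.34, limma adjusted p = 0.36) and 0.48 (EIF4EBP1, W2 vs EL, SE 0.33, limma adjusted p = 0.37) at their largest. With 3 samples against 3 an exact two-sided permutation test cannot go below p = 0.10. Leaving out PL_2, which enters these comparisons only through the shared estimate of spread, brought EEF2 and EIF4EBP1 in W2 vs EL past the threshold at the same fold changes, while the share of all genes called there went from 0.554% to 17.0%.

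The surrounding pathway was read from a list of 67 other translation factor genes, 62 of which are in the table. The list was drawn up with earlier results of these data known, so its p-values in comparisons with PL are descriptive. Genes named for their rank were picked on these same values. EIF3C, EEF1A2, PABPC1L, PABPC3 and PABPC5 were not analysed here. From PL to W2, 37 of the 62 rose and none fell at a limma adjusted p under 0.05, where 30.4% of all genes rose and 2.48% fell. Their median log2 fold change was 0.93 against 0.82 over genes of at least 10 units. After median ratio scaling, 11 rose and 2 fell, where 7.42% of all genes rose and 5.66% fell, with a median of 0.20 against 0.08.

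The eIF3 complex, which bridges the small ribosomal subunit to the messenger RNA, had the largest share of genes called. Of its 12 measured subunits 11 rose from PL to W2 as deposited and 8 still did so after scaling. Of all genes 30.4% and 7.42% rose. EIF3E was the leading gene of the list, at 96.2, 199 and 227 units in PL and 649, 745 and 580 in W2. Its PL samples lay below the other 12, of which the lowest was 318, and the log2 fold change was 2.00 (SE 0.28, limma adjusted p = 0.00050), or 1.26 (SE 0.18, limma adjusted p = 0.00093) after scaling. In PL, EIF3E fell by 1.88 on the log2 scale from MG (limma adjusted p = 0.00095), fell by 1.76 from LG (limma adjusted p = 0.0022) and fell by 1.33 from EL (limma adjusted p = 0.020), and the scaled falls from all 3 stages passed as well. EIF3G, another subunit, fell by 1.06 in PL from EL (limma adjusted p = 0.047), and fell by 0.72 after scaling (limma adjusted p = 0.025).

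Among the 16 factors of cap binding and scanning, 12 rose from PL to W2 as deposited and 1, EIF1AX, did after scaling. Of all genes 30.4% and 7.42% rose, so the scaled count is near the share of all genes. EIF4A1, the close relative of EIF4A2, rose by 1.84 (SE 0.34, limma adjusted p = 0.0021), but the scaled value of 1.10 did not pass (limma adjusted p = 0.084). The cap-binding protein EIF4E rose by 1.00 (SE 0.16, limma adjusted p = 0.0010) as deposited and stood at 0.27 after scaling (limma adjusted p = 0.26). The helicase cofactor EIF4B rose by 1.17 (SE 0.36, limma adjusted p = 0.025) as deposited and stood at 0.43 after scaling. The scaffold EIF4G1 varied between 17.4 and 92.2 units over the samples and did not pass in either setting (1.00, SE 0.62, limma adjusted p = 0.23, as deposited). EIF4EBP2, another EIF4E-binding repressor, stood at 1.46 (SE 0.53, limma adjusted p = 0.051), opposite in sign to EIF4EBP1, and the difference between the pair was not tested.

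Of the 10 genes of eIF2, which brings the initiator tRNA, and its exchange factor eIF2B, 6 rose from PL to W2 as deposited and 1 after scaling. Of all genes 30.4% and 7.42% rose, so the scaled count is near the share of all genes. The 1 that passed after scaling was EIF2B3, at 1.66 (SE 0.26, limma adjusted p = 0.00075) as deposited and 0.94 (SE 0.29, limma adjusted p = 0.0499) after scaling. EIF2S3 is listed at 0 in PL_3, PL_6 and EL_3 and stood at 46.3 units in PL_2, so no fold change is given, and it did not pass (limma adjusted p = 0.061). Of the 4 eIF2 kinases 2 rose as deposited. EIF2AK3, the kinase of the unfolded protein response in the endoplasmic reticulum, stood at -0.24 as deposited and fell by 0.95 after scaling (SE 0.17, limma adjusted p = 0.0042).

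Among the 7 other elongation genes, EEF1D and EEFSEC rose from PL to W2 as deposited, near the 30.4% of all genes that rose. EEF1D, the partner of EEF1B2 in the exchange complex, had 181, 330 and 398 units in PL and 832, 782 and 725 in W2, and rose by 1.44 (SE 0.25, limma adjusted p = 0.0016), or by 0.69 (SE 0.15, limma adjusted p = 0.0090) after scaling. In PL, EEF1D fell by 1.44 from LG (limma adjusted p = 0.0033) and fell by 1.07 from EL (limma adjusted p = 0.031), and both passed after scaling. EEF1B2 per EEF1D was 2.09 to 2.67 in PL and 2.67 to 3.54 elsewhere, so the ranges nearly met. EEF1G, another subunit of the EEF1 complex, stood at 0.89 (SE 0.35, limma adjusted p = 0.066), and EIF5A, which eases the ribosome through difficult peptide bonds, at 0.57 (SE 0.21, limma adjusted p = 0.051). The median of the 7 genes was 0.57 as deposited and 0.05 after scaling. Over genes of at least 10 units it was 0.82 and 0.08.

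EEF2K, the kinase that inactivates EEF2, did not follow its substrate. It had 33.0, 27.6 and 25.3 units in MG, 29.3, 32.1 and 26.9 in LG, 29.3, 38.4 and 36.2 in EL, 38.1, 35.7 and 50.3 in PL, and 26.1, 28.4 and 35.1 in W2. From PL to W2 it stood at -0.46 (SE 0.18, limma adjusted p = 0.073) as deposited and fell by 1.19 after scaling (SE 0.21, limma adjusted p = 0.0034). EEF2K per EEF2 was 0.0348 to 0.0739 in PL and 0.0100 to 0.0259 in the other 12 samples, and 0.0300 to 0.0620 against 0.00969 to 0.0278 with quantile normalized values. EEF2 was already known to be low in PL, so a gene that did not fall with it stands high on such a ratio. How many genes do so was not counted, and the ratio is no separate result. EIF4EBP1 per EIF4E was 6.78, 17.0 and 21.1 in PL and 4.88 to 8.11 elsewhere, so PL_3 and PL_6 were above all other samples and PL_2 was within their range.

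Of the 7 partners and relatives of the poly(A)-binding proteins, PAIP1 and LARP4 rose from PL to W2 as deposited and none after scaling. Of all genes 30.4% and 7.42% rose, so these counts are near the share of all genes. PAIP2, which displaces PABPC1 from the tail, stood at 0.61 (SE 0.24, limma adjusted p = 0.069), the nuclear PABPN1 at 0.77 (SE 0.73, limma adjusted p = 0.44), and LARP1, which binds pyrimidine-rich starts, at -0.04 (SE 0.35, limma adjusted p = 0.96). The median of the 7 partners and relatives was 0.66 as deposited and -0.06 after scaling. Over genes of at least 10 units it was 0.82 and 0.08. In termination, GSPT1 and GSPT2 rose as deposited, ETF1 and ABCE1 did not pass, and none of the 4 passed after scaling. In PL, GSPT2 fell by 1.63 from MG (SE 0.37, limma adjusted p = 0.0085) as deposited, and the scaled value of -1.10 did not pass (limma adjusted p = 0.057).

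**Figure D4:**
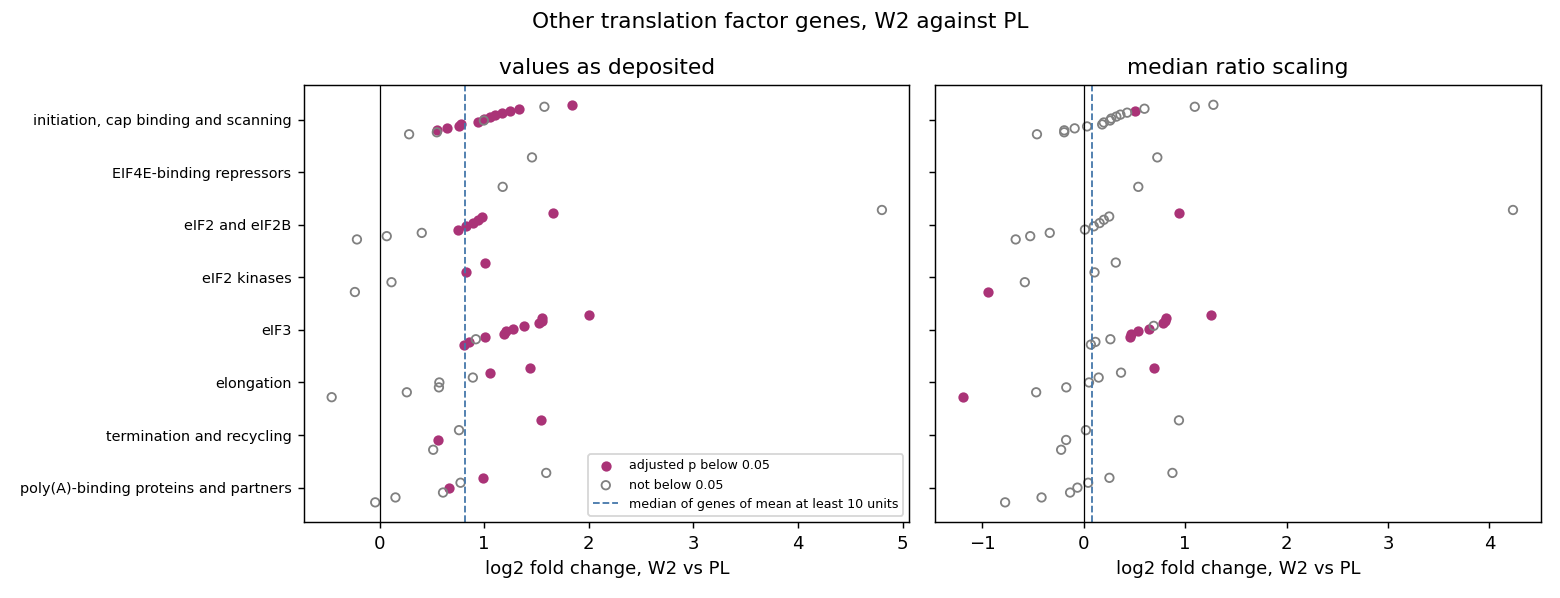
Log2 fold change from PL to W2 (horizontal axes) of the 62 other translation factor genes by group, as deposited on the left and after median ratio scaling on the right. Filled points passed a limma adjusted p of 0.05, open points did not, and the dashed line is the median of genes with a mean of at least 10 units, 0.82 and 0.08. As deposited 37 points are filled, all to the right of 0, and after scaling 13, of which 8 are eIF3 subunits and 2, EEF2K and EIF2AK3, lie to the left. The open point far to the right is EIF2S3, whose place depends on the pseudocount because 2 of its PL samples are listed at 0.

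Against MG, 33 of the 62 fell in PL and none rose, where 23.0% of all genes fell and 2.23% rose. After scaling 9 fell and 2 rose, where 5.97% fell and 5.04% rose, and the 2 that rose were again EEF2K and EIF2AK3. Against LG 22 fell and none rose, where 13.1% of all genes fell and 1.62% rose, and without LG_4 the count was 11. After scaling 7 fell and 2 rose, where 5.14% fell and 3.79% rose. Against EL 7 list genes fell and none rose, where 3.85% of all genes fell and 0.777% rose, and the count was 1 without EL_3 or EL_6 and 11 without PL_6. The number called among all genes ran from 432 to 1958 over such removals. After scaling 6 list genes fell and none rose, where 2.71% of all genes fell and 2.54% rose. As deposited, EIF4A1 fell by 1.71 from MG (SE 0.34, limma adjusted p = 0.0040) and fell by 1.497 from LG (limma adjusted p = 0.013), and the scaled values of -1.06 and -0.99 did not pass (limma adjusted p = 0.11 and 0.14). In the 6 comparisons without PL no gene of the list passed under limma, while between 0 (W2 vs MG) and 25 (W2 vs EL) had an unadjusted p under 0.05, where 3.09% and 25.1% of all genes had. Without PL_2, 22 of the list passed in W2 vs EL and 2 in EL vs MG, where 17.0% and 1.78% of all genes passed.

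The genes whose levels were most like those of the members over the 15 samples were sought among 5747 reference genes of at least 10 units by Pearson's r of log2 levels. For EEF1B2 these were LOC100739087, the ribosomal protein gene RPL24 and the mitochondrial ribosomal gene MRPL12 (r = 0.99 for each). For EEF2 they were LOC100624113, IQGAP2 and RPL15 (r = 0.99 for each), and for PABPC4 they were EEF1B2, RPL5 and LOC100739087 (r = 0.99 for each). TPT1 was closest to ARHGAP6 (0.98), PPFIA1 and CEP63 (0.97 for both), EEF1A1 to CEBPG (0.94), ZBTB9 (0.93) and FKBPL (0.92), and EIF4A2 to LOC100524613 (0.93), PIGQ and EEA1 (0.91 for both). PABPC1 was closest to PRDX3 (0.98), LOC100626015 and AIG1 (0.97 for both), with its listed 0 in PL among the values, and EIF4EBP1 to SQSTM1, TMEM9B and EID1 (0.97 for each). With the other members, EIF4EBP1 had r between -0.38 and 0.42. The samples share stages and the fixed total, so these values rank likeness and nothing more.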

How the data were processed

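RNA from 30 mammary samples was sequenced, 6 per stage. The authors trimmed the reads with Trimmomatic, aligned them with HISAT2 to Sscrofa11.1, quantified transcripts with StringTie, and deposited the values as FPKM. They also name RUVs, and whether the deposited values include it is not given in the sources used here. The table gives no read counts, and a raw count matrix that the study holds elsewhere was not analysed here, so depth per value is unknown and precision was taken from the spread between samples. By the study's methods each sample came from a separate sow. All 30 columns were mapped to samples by title, and 0 were left unmapped.

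Within each stage, 3 columns differed from each other by a median of at most 1.85%, against 19.6 to 59.8% between the counted samples, and their mean matched that of the counted samples to within 0.741%. They were not counted as replicates (counted: MG 1, 3, 6; LG 1, 3, 4; EL 3, 4, 6; PL 2, 3, 6; W2 2, 3, 6). Gene sums were analysed as log2(value + 0.5) with limma 3.58.1 in R 4.3.3, with trended variance, 5 stages in 1 fit and Benjamini-Hochberg adjustment over 26012 genes. A fold change on this scale understates the change of low genes. Members and lists were chosen with earlier results of these data known. Named genes were the members with each transcript above 5% of its gene, 13 fixed list genes, the 3 list genes with the largest called rise and fall per comparison, and the 3 genes most like each member. EIF3G, EIF2S3, EIF2AK3, EIF1AX, EEFSEC, PAIP1, LARP4, GSPT1, ETF1 and ABCE1 were named after their values were seen where that rule did not give them. A planned search of start sites for pyrimidine tracts was not run, since no sequence was used here. Alternatives were other pseudocounts, a filter on low values, 2 other scalings, a replicate block, the compared stages alone, other sets of samples and the removal of single counted samples.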

Additional observations from a re-analysis of the deposited data

How the results depend on the processing

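Median ratio scaling moved the log2 fold change from PL to W2 to 1.10 for EEF1A1, 1.11 for EEF1B2, 0.84 for EEF2, 0.91 for PABPC4, 0.035 for EIF4A2 and -0.95 for EIF4EBP1, and reversed TPT1 in W2 vs PL (-0.30), PL vs MG (0.17) and EL vs MG (0.25) and PABPC4 in W2 vs EL (-0.020). Quantile normalization gave 1.25 for EEF1B2, 0.82 for EEF2, 1.03 for PABPC4, 0.18 for EIF4A2, -0.80 for EIF4EBP1 and 1.13 for TPT1 in W2 vs PL. List genes called were 11 in PL vs MG, 9 in PL vs LG and 13 in W2 vs PL by median ratio and 14, 11 and 15 by quantiles. Of all genes, 11.0, 8.94 and 13.1% were called there by median ratio and 11.6, 9.26 and 13.6% by quantiles. Without PL replicate 6, EIF4EBP1 was at 0.15 in W2 vs PL and -0.062 in PL vs MG. Leaving out samples in turn gave W2 vs PL values of 1.57 to 2.19 for EEF1A1, 1.44 to 2.19 for EEF1B2, 1.205 to 1.83 for EEF2, 1.22 to 2.03 for PABPC4, 0.55 to 1.19 for EIF4A2, 0.11 to 0.67 for TPT1 and -0.75 to 0.15 for EIF4EBP1, and W2 vs EL values of 0.44 to 0.70 for EEF2 and 0.38 to 0.57 for EIF4EBP1. List genes called ran from 31 to 42 in W2 vs PL, 26 to 36 in PL vs MG, 11 to 26 in PL vs LG, 1 to 11 in PL vs EL, 0 to 2 in EL vs MG and 0 to 22 in W2 vs EL, where the 22 came without PL_2.

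Counting all 6 samples per stage, of which 3 are near copies of a mean, narrows the spread by construction. It brought past the threshold EEF1A1 (0.85), EEF2 (0.55), EIF4EBP1 (0.47) and PABPC4 (0.37) in W2 vs EL, EEF1B2 (-0.48) and EIF4A2 (-0.61) in EL vs MG and PABPC1 (-1.29) in W2 vs LG, and list genes called became 17 in LG vs MG, 39 in EL vs MG, 52 in PL vs MG, 2 in W2 vs MG, 20 in EL vs LG, 48 in PL vs LG, 24 in W2 vs LG, 37 in PL vs EL and 42 in W2 vs EL, while the share of all genes called ran from 8.67% in W2 vs MG to 58.1% in PL vs MG over these comparisons. With the mean of the other samples as a 4th sample, EEF1A1 (0.86) and EEF2 (0.56) passed in W2 vs EL, and list counts were 15 in EL vs MG, 2 in EL vs LG, 39 in PL vs LG, 8 in W2 vs LG, 25 in PL vs EL and 28 in W2 vs EL, with 1.16 to 35.9% of all genes called there. Fitting the compared stages alone left 12 in PL vs MG, 2 in PL vs LG, 0 in PL vs EL and 17 in W2 vs PL, with 0.165 to 11.4% of all genes called. Replicate numbers did not pair the samples (mean correlation of deviations 0.013 over 19 same-number pairs), and with the replicate block the list counts were 4 in PL vs LG and 0 in PL vs EL, with 2.33 and 0.869% of all genes called. Where a cause is not given above, it was not tested. Without read counts, the counting error of a value of 0 or of a low PL value cannot be given.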
